A study of Mus musculus with 2 samples.

Results

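The glutathione S-transferase, microsomal glutathione S-transferase, sulfotransferase and UDP-glucuronosyltransferase genes of the mouse adrenal gland are described here. They were chosen by symbol: the cytosolic and mitochondrial GST classes alpha, kappa, mu, omega, pi and theta, the MGST genes, the SULT genes and the UGT1 and UGT2 genes, each with a transcript annotated as protein-coding in GENCODE M21. The rule finds 64 of the 55536 GENCODE genes of the gene table, and 71 symbols match before the requirement of a protein-coding transcript. The 64 members comprise 21 GST, 3 MGST, 21 SULT, 9 UGT1 and 10 UGT2 genes.

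These enzymes make up most of conjugation, the step at which a foreign or endogenous molecule is joined to a water-soluble group before it leaves the cell. GST and MGST enzymes attach glutathione, which is the route by which lipid peroxidation products are made harmless. SULT enzymes transfer sulfate from the donor PAPS to steroids, catecholamines, bile acids and phenols. UGT enzymes of the endoplasmic reticulum transfer glucuronic acid from UDP-glucuronic acid to bilirubin, steroids and drugs. The liver is the best known site of all these reactions, while several GST and MGST genes are used in nearly every tissue and the adrenal gland, which makes steroids with mitochondrial oxygenases, is rich in some of them.

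Total RNA-seq was made from the adrenal gland of female mice of strain B6CASTF1/J, an F1 hybrid, at an age of 14 days, with no treatment named in the labels. The series has 1 group of 2 libraries, replicate 1 and replicate 2, each made from 300 ng of RNA with ribosomal RNA reduction, a directional kit and ERCC spike-in RNAs. Both libraries carry 1 donor identifier and the same library description, which names a pool of 3 females, although the tissue of replicate 2 is labelled as that of another, single female. Whether the libraries come from separate animals is therefore not settled, and every p-value below measures only the difference between these libraries against counting noise, which may be technical.

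The libraries held 37586172 and 33844950 expected counts, and the members took 0.0650% of the GENCODE counts in replicate 1 and 0.144% in replicate 2. Replicate 2 stands apart from replicate 1 in its tissue markers. Liver markers summed to 367 TPM (a level per transcript length, relative to all RNA of its library) in replicate 1 and 21881 TPM in replicate 2, with all 14 genes higher in replicate 2 and none at 0 in either library. Skeletal muscle markers summed to 22.3 and 494 TPM (7 of 7 higher), Kupffer cell markers to 0.39 and 17.6 TPM (3 of 3 higher) and T cell markers to 35.1 and 0.86 TPM (7 of 7 lower). Adrenal cortex markers summed to 6718 and 2404 TPM (9 of 10 lower) and chromaffin markers to 1591 and 731 TPM (8 of 8 lower), so the labelled tissue was present in both. Kidney tubule markers summed to 0.35 and 0.17 TPM, with Kap, Slc12a1 and Umod at 0 in both libraries, and bile duct markers to 2.02 and 4.31 TPM. Fat cell markers summed to 1255 and 1454 TPM, stroma markers to 257 and 346 TPM, red cell markers to 5915 and 1791 TPM and intestine markers to 0.14 and 8.80 TPM, nearly all of the last from Fabp2 in replicate 2. In such bulk samples, fewer cells of a type and less RNA per cell cannot be told apart. Each member's value is therefore given for each library alone, and the part of the markers in any member's difference was not tested.

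Several members are near copies, and the sequences set how well their counts can be separated. The 3 pi-class genes lie side by side on chromosome 19 on the minus strand, Gstp1 at chr19:4035407-4037985, Gstp2 at chr19:4040285-4046023 and Gstp3 at chr19:4057477-4059569 (mm10). The first 60 of their 630 coding bases, from the GENCODE M21 transcripts, are shown because Gstp3 behaved unlike the other two. Capitals mark bases that differ from Gstp1.
Gstp1: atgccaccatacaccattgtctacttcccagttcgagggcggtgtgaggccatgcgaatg
Gstp2: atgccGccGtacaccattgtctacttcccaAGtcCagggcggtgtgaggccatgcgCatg
Gstp3: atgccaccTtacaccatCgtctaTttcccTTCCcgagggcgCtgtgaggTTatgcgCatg
Over the whole coding sequence Gstp2 differed from Gstp1 at 12 bases (98.1% identity) and Gstp3 at 178 bases (71.8% identity). Of all 31-base words in its transcripts, Gstp1 had 61.5%, Gstp2 39.7% and Gstp3 99.5% that occur in no other gene. The split of reads between Gstp1 and Gstp2 is therefore uncertain, and that of Gstp3 is not affected by them to a like degree.

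The 9 UGT1 genes are alternative first exons of 1 locus on the plus strand of chromosome 1, from Ugt1a10 at chr1:88055388-88219004 to Ugt1a1 at chr1:88211959-88218997, joined to the same downstream exons. All 9 share their last 737 coding bases, which are 45.9% to 46.5% of each coding sequence. The 60 bases around the start of this shared stretch are shown for 3 members that differed unequally between the libraries. Capitals mark the coding bases shared by all 9 genes, which need not begin at an exon boundary.
Ugt1a1: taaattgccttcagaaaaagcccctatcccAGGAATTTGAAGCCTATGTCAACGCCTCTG
Ugt1a6a: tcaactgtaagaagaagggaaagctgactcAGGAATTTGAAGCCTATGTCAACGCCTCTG
Ugt1a9: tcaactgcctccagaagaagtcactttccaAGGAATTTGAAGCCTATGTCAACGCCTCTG
Reads that lie within the shared bases fit every UGT1 gene, so a UGT1 level rests mainly on the bases before them. Those bases are not equally distinct for every member: Ugt1a6b had 15.8% unique 31-base words and shared 83.9% with Ugt1a6a. The median share of unique 31-base words was 34.7% over the UGT1 genes, against 76.8% for UGT2, 97.1% for SULT, 96.7% for GST and 98.7% for MGST genes. Across the 64 members, 14 had only unique words and 19 had fewer than 50% unique.

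The members were led by glutathione transferases in replicate 1 and shared more evenly among families in replicate 2. Their summed level was 875 TPM in replicate 1 and 1464 TPM in replicate 2. GST genes summed to 434 and 554 TPM, MGST genes to 407 and 361 TPM, and SULT genes to 21.6 and 380.35 TPM, which is 17.6 times more in replicate 2. UGT1 genes summed to 11.5 and 62.7 TPM, 5.45 times more, and UGT2 genes to 1.58 and 107 TPM, 67.4 times more. GST and MGST genes together thus supplied nearly all of the members' TPM in replicate 1, while SULT genes alone supplied 26.0% of it in replicate 2.

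**Figure D1:**
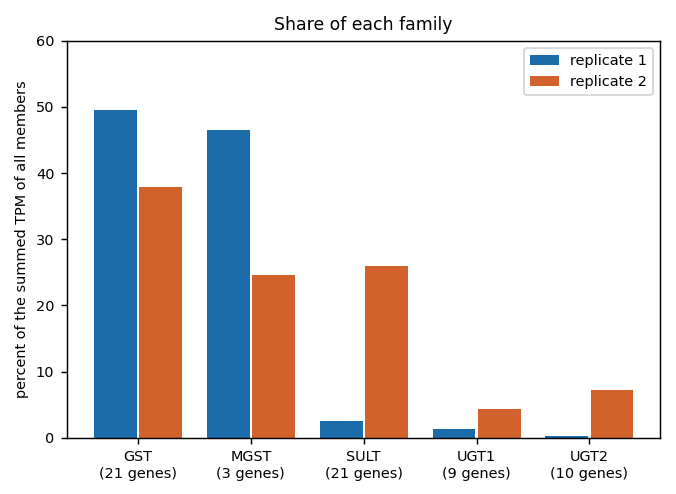
Percent of the summed TPM of all 64 members that each family supplied (vertical axis) in each library (bars; 1 library each, so no error bar). GST and MGST genes supplied 49.5% and 46.5% in replicate 1 and 37.8% and 24.6% in replicate 2, and SULT genes went from 2.46% to 26.0%.

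A level of at least 1 TPM was reached by 24 members in both libraries, by 19 in replicate 2 alone and by 1 in replicate 1 alone (Sult4a1), and 20 members were below it in both. Of these last, 6 genes had no count in either library: Sult1c1, Sult2a7, Sult3a1, Sult6b2, Ugt2a1 and Ugt2a2. Where nothing was counted, as many as 3 counts remain possible, which is 7.98e-06% of the counts of replicate 1 and 8.86e-06% of those of replicate 2. A further 5 members were at 0 counts in replicate 1 alone: Gsta1 and Ugt1a8, with 4 and 2 counts in replicate 2, and Gstm3, Sult2a4 and Ugt2a3, with 68, 163 and 245.

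**Figure D2:**
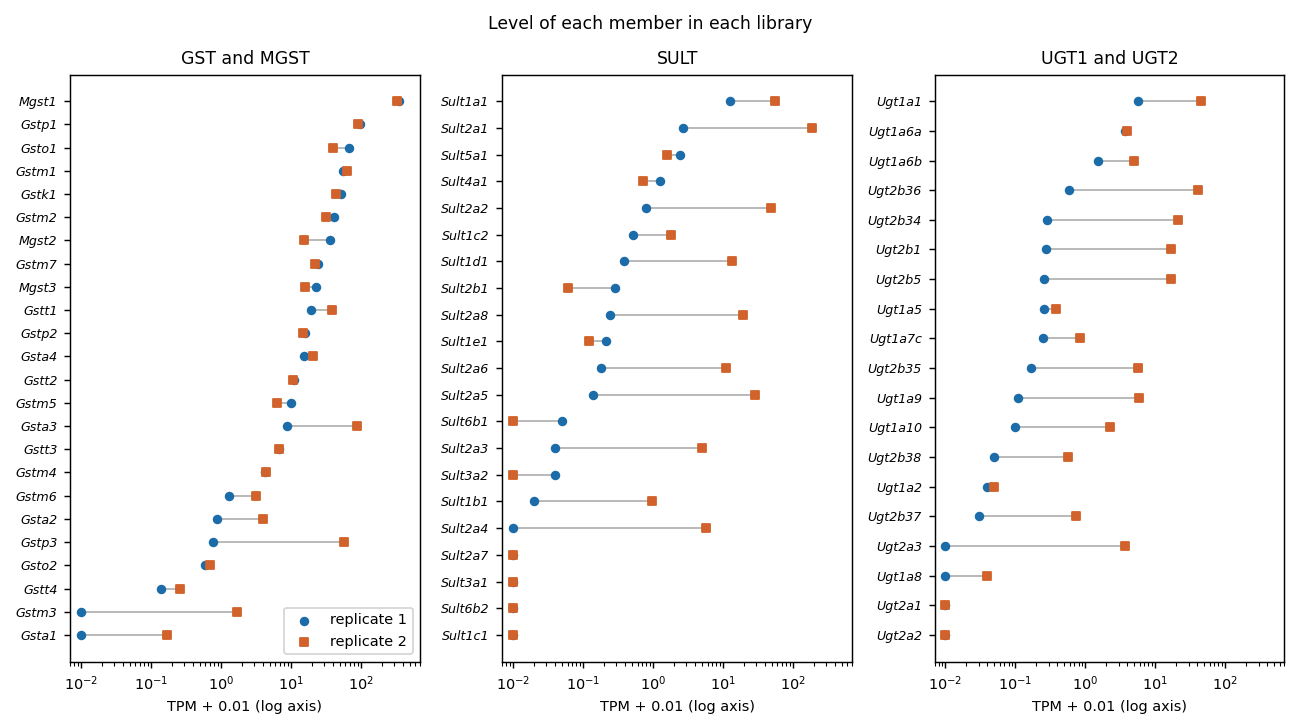
Level of each of the 64 members in replicate 1 (circles) and replicate 2 (squares) as TPM + 0.01 on a log axis, in 3 panels by family, ordered by the level in replicate 1. Mgst1 sits near 348 and 329 TPM, while Sult2a1, Gstp3 and the UGT2 genes lie far apart between the libraries.

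Counts were scaled with TMM and compared gene by gene as log2 of replicate 2 over replicate 1, with an exact conditional binomial test across the 16155 genes whose mean count reached 20 (Benjamini-Hochberg adjusted p under 0.05). Of the members, 49 entered it and 15 were too low. In all, 39 were higher in replicate 2, 1 was lower (Mgst2) and 9 were not called. These counts depend on the scaling: 34 were higher and 8 lower with ERCC scaling, and 31 higher and 9 lower with total-count scaling. Among all genes tested, 28.5% were higher and 24.7% were lower. A difference of over 2-fold upward was reached by 29 members and over 2-fold downward by 0, against 8.39% and 2.58% of all genes. The median difference of the tested members was 2.23 on the log2 scale, that of all genes -0.00. A member that is high in replicate 2 alone could pass the filter through that library, so these counts describe the 49 tested genes and not all members.

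**Figure D3:**
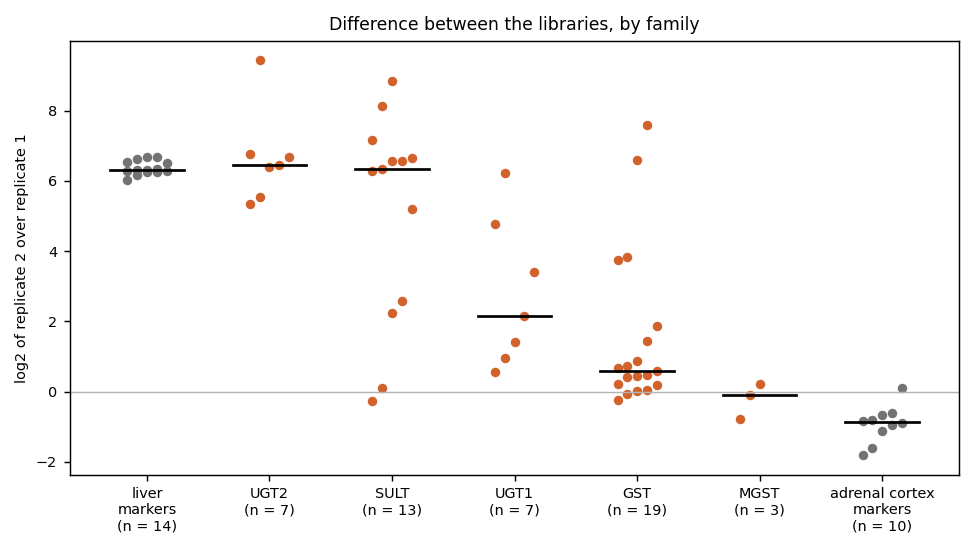
log2 of replicate 2 over replicate 1 (vertical axis, TMM-scaled counts with a prior count of 0.5) for each tested member by family and for the liver and adrenal cortex markers, with the median as a bar. UGT2 and SULT medians are 6.45 and 6.34, beside the liver markers' 6.31, and the MGST median of -0.10 lies above the cortex markers' -0.87. Most tested UGT2 and SULT genes had under 20 counts in replicate 1 and entered only through replicate 2. High values were thus part of their selection. Drawn at fitted values that depend on the prior count are 3 members with 0 counts in replicate 1.

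Of the 3 microsomal glutathione transferases, Mgst1 was at a similar level in both libraries in the gene table, Mgst2 was lower in replicate 2 and Mgst3 was not called. Mgst1, a membrane enzyme of the endoplasmic reticulum and outer mitochondrial membrane that conjugates and reduces lipid hydroperoxides, stood at 348 TPM in replicate 1 and at 329 TPM in replicate 2 (338 ± 13.4 TPM, SD, n = 2), the highest member in each. It made up 85.4% and 91.2% of the MGST level. Its TMM-scaled counts were 1.16-fold higher in replicate 2 (95% interval 1.12 to 1.19, counting error only), but the direction turned with ERCC scaling (log2 -0.07) and with total-count scaling (-0.13). Mgst1 lies at chr6:138140316-138156755 and all of its 31-base words were unique. The authors' second quantification, compared below, gave it 618 TPM in replicate 1 and 446 TPM in replicate 2, so its TPM was less alike there.

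Mgst2, which can make leukotriene C4, reached 36.3 TPM in replicate 1 and 15.6 in replicate 2. Its scaled counts in replicate 2 were 0.582 times those in replicate 1 (95% interval 0.504 to 0.670; adjusted p = 4.01e-14, exact conditional binomial test), so it was the single tested member called lower with TMM scaling. Mgst3, a relative of the same kind, was at 23.2 and 16.2 TPM and was not called (0.934-fold, 95% interval 0.835 to 1.04), but was called lower with ERCC (log2 -0.37) and total-count scaling (-0.44). Relative to the summed adrenal cortex markers within each library, Mgst2 and Mgst3 moved by 0.27 and 0.96 on the log2 scale. Both thus kept their ratio to those markers within 2-fold between the libraries, and 6 tested members did so in all.

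Among the cytosolic glutathione transferases, most members kept a similar level and a few were far higher in replicate 2. Of the family's 19 tested genes, 14 were higher and none was lower in the exact binomial test with TMM scaling. The other 5 were not called, and the median difference was 0.59. Over all genes, 28.5% were higher and 24.7% lower. Gsta2, Gstm3 and Gstp3 had under 20 counts in replicate 1 and entered the test only through replicate 2. Gstp1, the main pi-class enzyme, was at 96.5 and 91.9 TPM (94.2 ± 3.25, SD, n = 2), and its scaled counts were 1.33-fold higher in replicate 2 (95% interval 1.24 to 1.42), a call lost with total-count scaling. The second quantification gave Gstp1 113 and 160 TPM. Gstp2 was at 15.8 and 15.1 TPM in the gene table and was not called (log2 -0.06). It was called lower with ERCC (-0.33) and total-count scaling (-0.40), and in the second quantification (-1.10). The authors' posterior standard deviation was 48.5% of the count of Gstp2 in replicate 1 and 38.5% in replicate 2. Its neighbour Gstp3, the pi-class gene with the least similar sequence above, was at 0.76 and 57.6 TPM. Gstp3 rested on 16 counts in replicate 1 and 1126 in replicate 2, a 98.9-fold difference (95% interval 60.6 to 174). Of the 3 pi-class neighbours, Gstp3 thus differed as much as the liver markers, Gstp1 by far less, and Gstp2 had no call with TMM scaling of the gene table.

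The mu-class genes on chromosome 3 showed the same unevenness. Gstm1, the broadly used mu-class enzyme, was at 55.9 and 64.0 TPM and was 1.58-fold higher in scaled counts (95% interval 1.49 to 1.68). Gstm2 was at 41.9 and 32.0 TPM and was not called (adjusted p = 0.66, exact conditional binomial test), and Gstm5 was at 10.2 and 6.35 TPM and not called either (log2 -0.23), though it was called lower with ERCC (-0.51) and total-count scaling (-0.57). Between them along the chromosome, Gstm3 went from 0 counts to 68, which is at least 31.8-fold higher when the 0 is taken as 3 counts (25.2-fold is the lower 95% limit from the counts themselves). Gstm6 was at 1.28 and 3.18 TPM (log2 1.88), while Gstm7 and Gstm4 differed by 0.22 and 0.59. The differences of Gstm7 and Gstm2 (log2 0.04) are smaller in size than the shift of -0.275 that ERCC scaling gives all genes. Their direction therefore turns with that scaling. Of the 7 mu-class genes, 5 were higher and 2 not called with TMM scaling, beside 28.5% higher and 24.7% lower over all genes. Exons of Gstm5 overlap an antisense RNA gene over 178 bases, and strand use in the counting is not given in the sources used here.

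The alpha class held members of both kinds. Gsta4, which conjugates the lipid peroxidation product 4-hydroxynonenal, was at 15.2 and 20.9 TPM (1.84-fold, 95% interval 1.63 to 2.08). Gsta3, an alpha-class enzyme that conjugates aflatoxin epoxide, was at 8.77 and 89.1 TPM and 13.4-fold higher in scaled counts (95% interval 11.9 to 15.1), the second-largest contributor to the GST level of replicate 2 after Gstp1. Gsta2 was at 0.86 and 3.97 TPM, and Gsta1 at 0 and 4 counts was too low to test. Gsta3 thus ranked 16 among the members in replicate 1 and 4 in replicate 2.

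In the remaining GST classes, Gstt1 alone of the tested genes differed by over 2-fold. Gsto1, an omega-class enzyme that also reduces dehydroascorbate, was at 67.9 and 39.7 TPM, but its scaled counts differed by 0.02 (adjusted p = 0.772, exact conditional binomial test), and this direction turned with ERCC scaling (-0.25) and total-count scaling (-0.32). The TPM of a gene also depends on which transcripts and lengths the authors' tool assigned, so TPM and counts need not move alike. Gstk1, the mitochondrial and peroxisomal kappa-class enzyme, was at 51.5 and 43.7 TPM (log2 0.18). This difference is smaller in size than the shift of -0.275 under ERCC scaling, so its direction turns with that scaling too. Gstt1, a theta-class enzyme, was at 19.4 and 39.4 TPM and 2.74-fold higher (95% interval 2.48 to 3.02), while its neighbours Gstt2 and Gstt3 differed by 0.48 and 0.44. Exons of Gstt3 share 524 bases with Gm20441 on the same strand, which was listed at 0 TPM in both libraries.

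**Figure D4:**
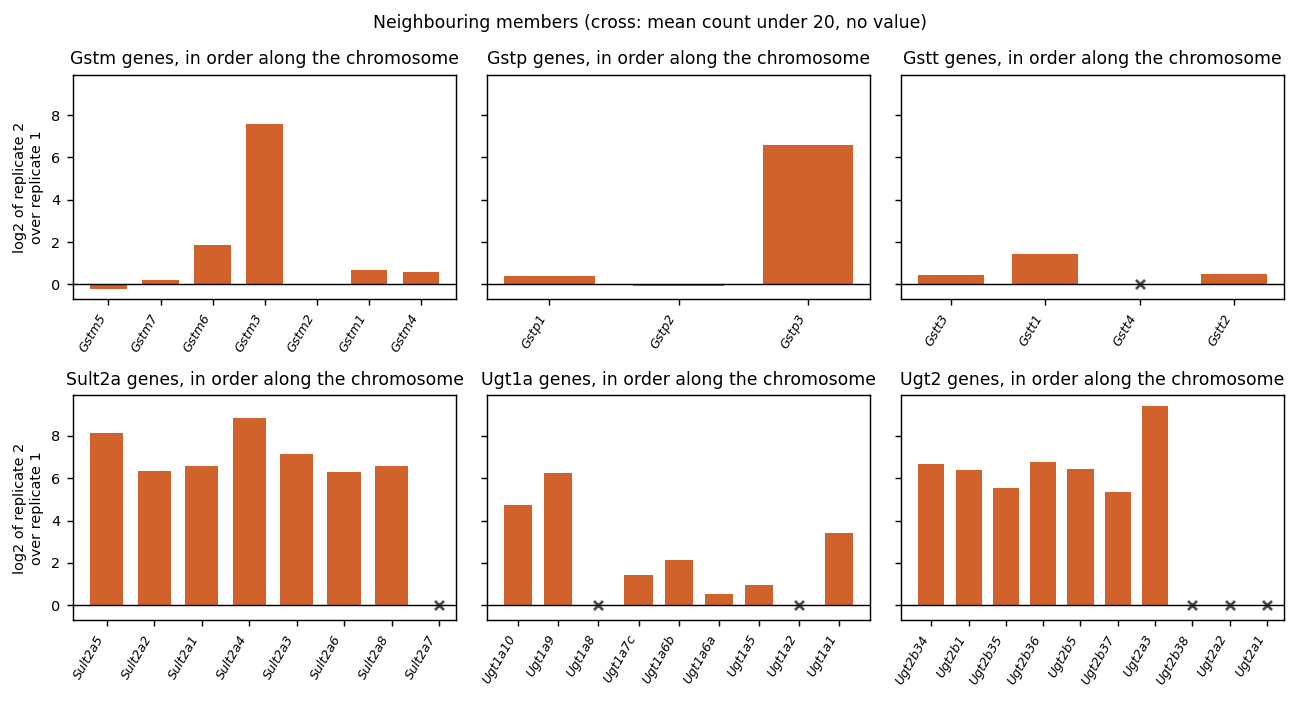
log2 of replicate 2 over replicate 1 (vertical axis) for the members of 6 gene clusters in their order along the chromosome; crosses mark genes with a mean count under 20, which have no value. The Sult2a bars all exceed 6 and the Ugt2 bars 5, while the Gstm and Gstp clusters each hold 1 tall bar among short ones; bars of Gstm3, Sult2a4 and Ugt2a3 had 0 counts in replicate 1 and depend on the prior count.

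The SULT level was higher in replicate 2 mainly through the Sult2a cluster, Sult1a1 and Sult1d1. Of the 21 SULT genes, 4 reached 1 TPM in replicate 1 and 11 in replicate 2, while 4 were at 0 in both libraries and 8 were too low to test. Of 13 tested SULT genes, 11 were higher, none was lower and 2 were not called, beside 28.5% higher and 24.7% lower over all genes. Their median difference was 6.34, or 6.28 with the gene at 0 counts set to its lower bound. The Sult2a cluster on chromosome 7, whose enzymes sulfate hydroxysteroids and bile acids, gave most of it: all 7 tested of its 8 genes were higher, and the cluster summed to 3.99 and 306 TPM. Of these 7, all but Sult2a1 had under 20 counts in replicate 1. They, and likewise Sult1b1 and Sult1d1, entered the test only through replicate 2, so a higher value there was part of their selection. Sult2a1 stood at 2.65 TPM in replicate 1 and at 188 in replicate 2, a 95.7-fold difference in scaled counts (95% interval 77.1 to 120.1), and was then the second-highest of all 64 members. Sult2a2 was at 0.78 and 47.8 TPM (83.6-fold) and Sult2a5 at 4 and 900 counts (316-fold, 95% interval 123 to 1163). Sult2a4, with 0 and 163 counts, was higher by at least 76.3-fold on the same floor (lower 95% limit 61.4), and Sult2a3 had 1 and 152 counts (214-fold, 95% interval 37.8 to 8490). The order among these genes is uncertain, since Sult2a1 and Sult2a2 have only 44.4% and 25.5% unique 31-base words.

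Sult1a1, the main phenol sulfotransferase, was the leading SULT gene of replicate 1, at 12.5 TPM, and was at 55.5 TPM in replicate 2 (5.98-fold, 95% interval 5.43 to 6.60). Its share of the SULT level went from 57.9% to 14.6%, while that of Sult2a1 went from 12.3% to 49.5%. An overlap of 61 exon bases with Sgf29 on the other strand (12.7 and 9.53 TPM) leaves a small part of its count uncertain. Sult1d1, which sulfates catecholamines, was at 0.38 and 13.6 TPM, with 14 and 1039 counts (104-fold, 95% interval 61.9 to 191). The markers of chromaffin cells, which make catecholamines, went the other way, with 8 of 8 lower in replicate 2. The cell source of Sult1d1 was not tested. The 2 SULT genes not called were Sult4a1, a neuronal member of the family (1.24 and 0.72 TPM, log2 -0.27), and Sult5a1 (2.40 and 1.57 TPM, log2 0.09). Sult4a1 was called lower with ERCC (-0.55) and total-count scaling (-0.61). Sult1e1, the estrogen sulfotransferase, had 8 and 4 counts, and Sult2b1, which sulfates cholesterol, had 11 and 2 counts, both too few to test.

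The UGT1 genes, though they share 1 locus and its downstream exons, differed unequally between the libraries. Of 7 tested genes 6 were higher and 1 was not called (Ugt1a5, 0.25 and 0.37 TPM), with a median of 2.15. Over all genes, 28.5% were higher and 24.7% lower. Ugt1a5, Ugt1a9 and Ugt1a10 had under 20 counts in replicate 1 and entered the test only through replicate 2. Ugt1a1, the bilirubin enzyme, was at 5.64 and 44.4 TPM (10.5-fold, 95% interval 9.51 to 11.7) and made up 49.0% and 70.9% of the UGT1 level. Ugt1a6a, a phenol enzyme, was at 3.66 and 3.97 TPM (1.46-fold, 95% interval 1.24 to 1.73), a call lost with total-count scaling. Its near copy Ugt1a6b was at 1.5 and 4.97 TPM (4.45-fold). With 15.8% unique 31-base words in Ugt1a6b, the split of reads between these genes is uncertain. Ugt1a9 was at 0.10 and 5.84 TPM (80.7-fold, 95% interval 38.8 to 202). The 3 members whose bases are printed above thus differed by 0.55, 3.40 and 6.24 on the log2 scale, for Ugt1a6a, Ugt1a1 and Ugt1a9 in turn. The authors' posterior standard deviation was 13.8% of the count of Ugt1a6b and 47.5% of that of Ugt1a9 in replicate 1, and 6.53% and 5.63% in replicate 2.

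The UGT2 genes had the largest ratio of summed TPM of the 5 families. No UGT2 gene reached 1 TPM in replicate 1, where the highest was 0.58 TPM, and 6 of 10 reached it in replicate 2. All 7 tested genes were higher, beside 28.5% of all genes, with differences from 5.35 to 9.43 and a median of 6.45. All but Ugt2b1, Ugt2b34 and Ugt2b36 had under 20 counts in replicate 1 and entered the test only through replicate 2. Ugt2b36, a steroid and drug enzyme of the liver as are its neighbours, was at 0.58 and 41.3 TPM (111-fold, 95% interval 77.7 to 165). Ugt2b34 was at 0.27 and 21.4 TPM (105-fold) and Ugt2b5 at 0.25 and 16.7 TPM (90.5-fold). Ugt2a3 went from 0 to 245 counts, a difference of at least 115-fold on the same floor (lower 95% limit 92.6). The lowest difference was that of Ugt2b37, with 1 and 43 counts, and the second transcript table gave it 1 count in replicate 2; this gene was chosen after its values were seen. Ugt2b36 made up 36.7% and 38.7% and Ugt2b5 15.8% and 15.6% of the UGT2 level, while Ugt2b35 went from 10.1% to 5.35%, Ugt2b38 from 2.53% to 0.516% and Ugt2a3 from 0 to 3.45%. The shares of replicate 1 rest on at most 30 counts per gene.

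Members were also sorted by what is known of them into 27 liver-type and 12 adrenal-type genes, the latter being members used broadly outside the liver, and 25 in neither list. The lists were drawn from textbook knowledge with earlier results of these data known, so they give no independent evidence of direction. Of 23 tested liver-type members, 21 were higher, none was lower and 2 were not called. Their median was 6.34 (6.28 with genes at 0 counts set to their bound). Beside this count and the next ones stand the shares over all genes, 28.5% higher and 24.7% lower. Most of the 23 had under 20 counts in replicate 1 and entered the test only through replicate 2. The 12 adrenal-type members were all tested, with 7 higher, 1 lower and 4 not called, and a median of 0.20 that turned to -0.08 with ERCC and -0.14 with total-count scaling. Of the members in neither list, 14 were tested, 11 were higher and 3 not called, with a median of 1.65. Liver-type members summed to 132 and 716 TPM and adrenal-type members to 705 and 639.52 TPM. Gstp1, placed in the liver-type list because mouse liver uses it, held 96.5 of the 132 TPM in replicate 1.

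The differences of the markers themselves give a scale for each member. The 14 liver markers lay between 6.04 and 6.69 and the 10 adrenal cortex markers between -1.80 and 0.10. Of the 49 tested members, 16 lay at or above the lowest liver marker: 8 SULT, 5 UGT2, 2 GST (Gstp3 and Gstm3) and 1 UGT1 gene (Ugt1a9). With genes at 0 counts set to their bound, 15 did, since Gstm3 drops below. These 16 summed to 6.59 TPM in replicate 1 and 484 TPM in replicate 2, and 14 of them were liver-type and 0 adrenal-type. Of the 16, all but Sult2a1, Ugt2b1, Ugt2b34 and Ugt2b36 had under 20 counts in replicate 1. The filter passed those only through replicate 2. At or below the highest cortex marker lay 8 members, 4 GST, 2 MGST and 2 SULT genes, which summed to 199 and 127 TPM. The other 25 lay between the marker groups and held most of the level, 669 and 851 TPM, with Mgst1, Gstp1, Gsta3, Sult1a1 and Ugt1a1 among them.

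Within a library, a member's ratio to the summed liver markers does not depend on scaling. This ratio stayed within 2-fold between the libraries for 14 members. For Sult2a1 it moved by 0.25 on the log2 scale, for Ugt2b36 by 0.26, for Ugt2b5 by 0.16 and for Ugt1a9 by -0.03. For Gsta3, Sult1a1 and Ugt1a1 it moved by -2.55, -3.75 and -2.92, and for Mgst1 by -5.98. It was higher in replicate 2 for Sult2a5 and Sult2a3, by 1.90 and 1.49, from 4 and 1 counts in replicate 1. Members thus stood on both sides of the liver markers.

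Genes that supply, carry and control conjugation were followed as fixed lists beside the members. Of 15 tested genes of glutathione synthesis and breakdown, 10 were higher, 2 lower and 3 not called (median 0.85), beside 28.5% higher and 24.7% lower over all genes. Cbs, which starts cysteine synthesis from homocysteine, was at 1.90 and 41.6 TPM (log2 5.07), and Anpep, a peptidase, at 3.17 and 16.9 TPM (2.90). Oplah and Gclm, for 5-oxoproline cleavage and the modifier subunit of glutamate-cysteine ligase, were the list's highest by mean TPM, with differences of 0.77 and 1.00. Lower in replicate 2 were Slc7a11, the cystine transporter, at 0.88 and 0.08 TPM (-2.49), and Dpep1, a dipeptidase, at 12.2 and 5.71 TPM (-0.51).

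Of 8 tested genes of sulfate supply and removal, 3 were higher, 3 lower and 2 not called (median 0.00), beside 28.5% higher and 24.7% lower over all genes. Slc26a1, a sulfate transporter, was at 0.21 and 14.6 TPM (6.50) and Papss2, which makes the donor PAPS, at 6.07 and 21.9 TPM (2.29). Its relative Papss1 was at 14.8 and 10.01 TPM (-0.17, called lower), so the leading PAPS synthase by TPM differed between the libraries. Also lower were Impad1 (-0.16) and the sulfate transporter Slc26a2 (-0.29). Bpnt1, which breaks down the spent donor, was at 20.6 and 18.7 TPM (0.15).

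Of 5 genes of the glucuronic acid route, 3 were higher, 1 lower and 1 not called (median 0.97), beside the same 28.5% and 24.7% over all genes. Gulo, the last enzyme of vitamin C synthesis from glucuronate, was at 3.17 and 39.9 TPM (4.08), and Ugp2, which makes UDP-glucose, at 23.1 and 33.6 TPM (0.97). Ugdh, which makes the donor UDP-glucuronic acid, was lower, at 22.3 and 9.95 TPM (-0.39). The donor enzyme was thus lower in the library in which the UGT genes that use its product were higher.

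Among 9 transporters of conjugates, 6 were higher, 1 lower (Abcc4, -0.33) and 2 not called (median 2.13). The shares over all genes, 28.5% higher and 24.7% lower, stand beside this count and the next ones. The bile salt pump Abcb11 was at 0.27 and 25.9 TPM (6.66) and the liver uptake carrier Slco1b2 at 0.87 and 45.7 TPM (6.29). Of 8 regulators, 7 were higher, none was lower and 1 was not called (median 1.75). The liver factor Hnf4a was at 0.37 and 22.4 TPM (6.32) and Nr1i2, the pregnane X receptor that senses drugs and steroids, at 0.09 and 5.51 TPM (6.21). Nfe2l2, the factor that binds antioxidant response elements, was at 30.1 and 22.7 TPM and was not called (0.04). Of 9 tested relatives that the symbol rule leaves out, 3 were higher, 1 lower (Ptges, -0.51) and 5 not called (median 0.26), with Gstz1, of tyrosine breakdown, at 31.4 and 81.2 TPM (1.71) and Ugt3a2 at 0.07 and 4.98 TPM (6.54).

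The authors deposited a second quantification, and the members were compared between both. Over the 42 members with a mean of at least 1 TPM, the median absolute log2 ratio of the tables was 0.42 in replicate 1 and 0.49 in replicate 2, and over all genes the median ratio was 0.48 and 0.52. In all, 5 members differed by more than 1 in a library: Gstp2, Gstp3, Gsta4, Mgst2 and Sult1d1. Gstp2 stood out, at 110.19 TPM in the second table against 15.8 TPM in replicate 1, and at 41.2 against 15.1 TPM in replicate 2. Its difference between the libraries was then -1.10 and was called. The full-length coding transcript Gstp2-201 was given 70.3% and 43.1% of the gene's TPM in the first transcript table. The second table gave it 9.19e-05 TPM in replicate 1 and 0 in replicate 2. It placed 57.8 and 24.4 TPM on the retained-intron transcript Gstp2-204.

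Among other leading members, Sult1a1-202 took 92.0% and 94.1% of Sult1a1 in the first table. Mgst2-201 took 88.7% and 91.7% of Mgst2 there, and both also led their gene in the second table. Transcript shares of Mgst1 and Gstp1 were no firmer than those of Gstp2. Mgst1-201 took 31.3% and 18.9% of Mgst1 in the first table and Mgst1-207 took 21.9% and 34.2%, while the second table gave Mgst1-207 0 TPM in both libraries. A retained-intron transcript, Gstp1-203, took 43.8% and 37.7% of Gstp1 in the first table and was given 2.78e-08 and 0 TPM in the second. Isoform use is therefore not compared between the libraries. The 15 members under 80% unique words had a median table difference of 0.45 and the 27 others 0.61, in the library where each differed more, and the part of sequence sharing was not tested.

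**Figure D5:**
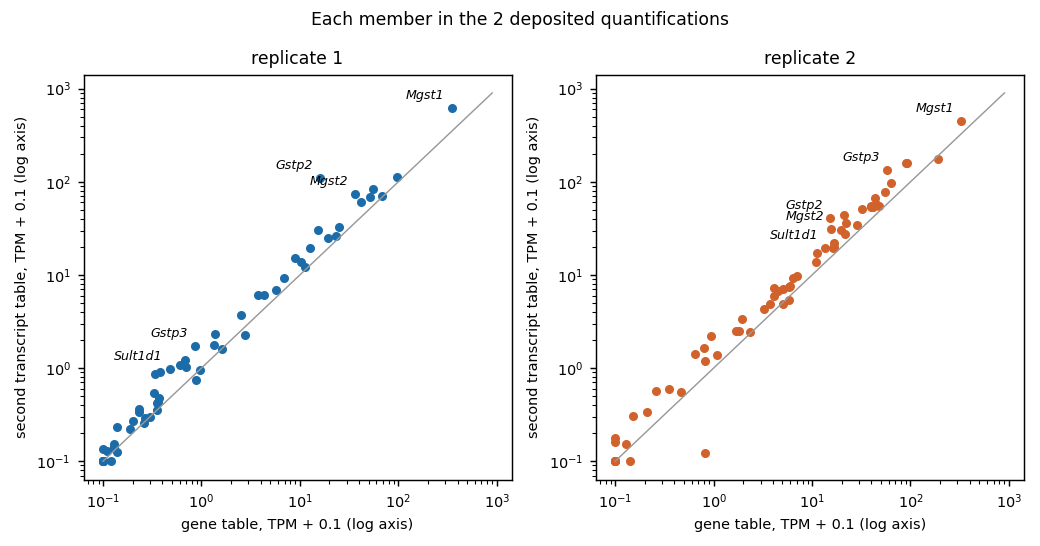
TPM + 0.1 of each member in the gene table (horizontal, log axis) and in the second transcript table summed to genes (vertical, log axis), 1 panel per library, with the line of equal values. Most points lie slightly above the line, and Gstp2 lies far above it in replicate 1, at 15.8 and 110.19 TPM.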

How the data were processed

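Per the file headers, the deposited gene table has the authors' expected counts and TPM. The deposited first transcript table adds each transcript's percent of its gene. The second deposited transcript table holds estimated counts and TPM. The text deposited with the samples names mm10 and GENCODE M21, a transcriptome alignment for the first tables, and read files with an index for the second. Tools, versions and strand use were not given in the sources used here. Expected counts were rounded and scaled with edgeR 4.0.16 TMM in R 4.3.3. A prior count of 0.5 was added before log2 of replicate 2 over replicate 1 was taken. The test was a two-sided exact conditional binomial test (doubled smaller tail, scipy 1.17.1), Benjamini-Hochberg adjusted over the 16155 non-mitochondrial genes whose mean count reached 20, and was tested on simulated counts. Fold intervals are Clopper-Pearson at 95% and cover counting error only, as do floors of 3 counts. Levels and differences were compared within the gene table, and tables as log2(TPM + 0.1). GENCODE M21 transcripts were read for sequences and 31-base words. A further gene is not reported here.

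Members and lists were chosen with earlier results of these data known. Members named are the 3 per family of highest mean TPM, the 10 per direction of largest difference and the 5 with the largest disagreement of the tables, with others by count or range, or by name where a count is 5 or fewer or a result turns on them. Partner genes named are taken from those of highest mean TPM and largest difference in each list, with those called lower. Not every gene that ranks as high is named. Alternatives covered DESeq2 1.42.0 size factors, ERCC and total-count scaling, count minimums, the prior count, log2 TPM scales and the second table. With 1 group no comparison between groups was possible. No value column was left unmapped (0 columns).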

Additional observations from a re-analysis of the deposited data

How the results depend on the processing

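ERCC scaling, total-count scaling, log2(TPM + 1) and log2(TPM + 0.1) moved the median of all genes by -0.275, -0.339, -0.304 and -0.403, so small differences turn with them. Members called lower numbered 8 with ERCC scaling, 9 with total-count scaling and 2 in the second table, against 1. Members over 2-fold higher fell from 29 to 19 under a minimum of 100, where fewer members are tested, and 1 member was over 2-fold lower, against 0, with ERCC scaling, total-count scaling, a count minimum of 5, the second table, log2(TPM + 1) and log2(TPM + 0.1). The liver-type median of 6.34 was 6.07 with ERCC and 6.00 with total-count scaling, 5.56 with a prior count of 5, 2.77 on log2(TPM + 1) and 5.24 on log2(TPM + 0.1). The adrenal-type median of 0.20 reversed to -0.078, -0.14, -0.19 and -0.20 under ERCC scaling, total-count scaling, log2(TPM + 1) and log2(TPM + 0.1). Of 130 alternatives over 26 named members, 115 kept direction and call, 9 gained a call, 2 lost it and 4 reversed. Those that gained one were Gstm5, Gstp2, Mgst3 and Sult4a1, and those reversed were Gsto1 at -0.25 and -0.32 and Mgst1 at -0.065 and -0.13 with ERCC and total-count scaling. All changes came with ERCC scaling, total-count scaling or the second table. The prior count does not enter the test, so its alternatives could not change a call. DESeq2 size factors nearly equalled TMM (library ratios of 0.711 and 0.712), so these 2 settings add little to the number that kept direction and call. Members of at least 1 TPM numbered from 25 without replicate 2 to 43 without replicate 1, against 42 for the mean. Beyond the shift of all genes, the cause of these changes was not tested. Since separate animals are not established, the spread of the libraries may be technical, and members under 20 mean counts (15) are limited by depth. No paired analysis was possible because the series has 1 group.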
